A study of Mus musculus with 94 samples.

Results

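The genes described here are 10 genes of protein folding in the endoplasmic reticulum (ER): Hspa5, Hsp90b1, Calr, Pdia4, Pdia6, Dnajb9, Sdf2l1, Manf, Creld2 and Xbp1. The members are every probe set whose platform annotation names 1 of these genes and no other, which gave 20 probe sets for the 10 genes, of 34958 probe sets for 18194 genes on the array. The arrays measured half-brains of male C57BL6 mice aged 11 weeks, either Mgmt-/- mice, which lack the DNA repair enzyme that removes O6-methylguanine and were on the same C57BL6 background, or wild-type (wt) mice. Each animal had received a single intraperitoneal injection of MAM (methylazoxymethanol acetate, a methylating agent from cycads) or of vehicle, and the brain was taken 6, 24, 48 or 168 hr later. The 16 groups of genotype, agent and time held 6 animals each, except Mgmt-/- MAM at 168 hr, wt MAM at 168 hr and wt vehicle at 48 hr, with 5. Mgmt-/- mice lack the enzyme in all cells, and nothing was sorted, so each value is an average over the cell types of the brain, in which fewer cells of a type and less RNA per cell cannot be told apart.

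Secreted and membrane proteins fold in the ER with the help of chaperones that hold unfolded chains, enzymes that form and reshuffle disulfide bonds, and cochaperones that direct them. When unfolded proteins build up, the sensors Ire1, Perk and Atf6 start the unfolded protein response, in which cleaved Atf6 and the spliced form of Xbp1 raise the transcription of chaperone genes. All members but 1 encode proteins of the ER, and Xbp1 is the transcription factor of the Ire1 branch. Array probe sets of the 3' end do not separate spliced from unspliced Xbp1 mRNA.

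All 94 arrays gave a log2 value for every probe set. The array of 1 animal labelled Mgmt-/- MAM 168 hr was left out because its mean over 14 liver-secreted protein genes was 13.35, against 5.02 to 7.64 in the other 93 arrays, and its mean over the neuron markers was 5.13, against 11.58 to 12.02. The animal numbers form 2 number sets in each genotype, which were taken as the 2 laboratories of the study. The difference between 3' and 5' control probe sets of Gapdh and b-actin, a measure of RNA integrity in which a larger value means more 5' loss, had group means of 0.52 to 0.63 in Mgmt-/- MAM and 0.42 to 0.55 in Mgmt-/- vehicle, against 0.33 to 0.44 in wt MAM and 0.31 to 0.37 in wt vehicle. It thus moved with genotype and with MAM, with higher means after MAM than after vehicle at 6, 24 and 48 hr in Mgmt-/- mice and at 6, 24 and 168 hr in wt mice.

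The promoters of 9 members were in the RefSeq set of mouse promoters (GRCm38.p6, 250 bases before to 50 after each gene start), and Manf was not in the set. The ER stress response element (ERSE, CCAAT and CCACG with 9 bases between them, on either strand) is the site through which Atf6 and spliced Xbp1 act. It was present in 5 of the 9, Hspa5, Hsp90b1, Calr, Pdia6 and Creld2, against 0.137% of all 27025 genes in the set. Hsp90b1 held the element on both strands. The core of the unfolded protein response element (TGACGTG) was found only in Hspa5 of the 9, against 2.22% of all genes, and ERSE-II (ATTGG, 1 base and CCACG) in none. The promoters of the 3 abundant chaperones are printed because all 3 hold the element, while their transcripts differed in the comparisons below. Capitals mark the ERSE on either strand and, in Hspa5, also the TGACGTG core further upstream.
Hspa5, chr2:34771840-34772139, plus strand: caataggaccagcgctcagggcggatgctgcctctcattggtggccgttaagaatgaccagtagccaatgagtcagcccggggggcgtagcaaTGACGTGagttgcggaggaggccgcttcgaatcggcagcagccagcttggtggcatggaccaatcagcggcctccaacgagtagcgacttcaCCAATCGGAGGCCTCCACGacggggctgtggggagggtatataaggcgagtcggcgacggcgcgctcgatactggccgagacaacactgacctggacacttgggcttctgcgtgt
Hsp90b1, chr10:86705395-86705694, minus strand: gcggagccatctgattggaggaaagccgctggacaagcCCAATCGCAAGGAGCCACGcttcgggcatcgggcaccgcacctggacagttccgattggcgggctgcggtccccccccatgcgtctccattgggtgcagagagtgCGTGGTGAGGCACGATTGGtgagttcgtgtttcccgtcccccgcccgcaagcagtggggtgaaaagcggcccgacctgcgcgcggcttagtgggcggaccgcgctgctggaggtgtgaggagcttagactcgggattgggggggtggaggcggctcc
Calr, chr8:84846882-84847181, minus strand: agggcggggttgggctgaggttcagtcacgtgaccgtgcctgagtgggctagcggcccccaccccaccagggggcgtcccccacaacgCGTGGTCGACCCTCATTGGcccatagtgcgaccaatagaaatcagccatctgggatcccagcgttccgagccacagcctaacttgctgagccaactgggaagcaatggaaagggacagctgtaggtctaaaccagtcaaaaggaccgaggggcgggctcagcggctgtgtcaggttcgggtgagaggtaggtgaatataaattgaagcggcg

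The elements of the other members, read on the strand that carries the motif, are given for comparison because both genes are among those described at 24 hr.
Pdia6, bases -98 to -80 from the gene start: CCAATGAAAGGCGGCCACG
Creld2, bases -126 to -108 from the gene start: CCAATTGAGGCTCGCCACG
No such match was found in the promoter windows of Pdia4, Sdf2l1, Dnajb9 and Xbp1, which are not printed. This says only that these letters are not in them.

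The members were measured at very different points of the array's range. Averaged over the 93 arrays, the main probe sets of Hspa5, the Hsp70 chaperone of the ER lumen (BiP), and of Calr, a calcium-binding lectin chaperone of glycoproteins, had log2 values of 11.25 and 11.03, above 98.2% and 97.8% of all probe sets. Dnajb9, a DnaJ cochaperone of Hspa5, had 10.24, above 95.7%. Pdia4, a protein disulfide isomerase, had 7.22 on the brighter of its 2 probe sets, the one meant below, above 71.8% of probe sets, and Sdf2l1, a soluble ER protein that works with DnaJ cochaperones, had 6.33, above 61.9%. The second probe sets of Pdia4 and Pdia6 were dim at 4.15 and 4.52, and each followed the other probe set of its gene only weakly over the arrays (r = 0.06 and 0.13).

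Across the 16 groups the member with the smallest range of group means was Dnajb9, 10.11 to 10.39, and the widest ranges belonged to Sdf2l1, 5.80 in Mgmt-/- MAM 48 hr to 6.81 in wt vehicle 6 hr, and Pdia4, 6.75 in Mgmt-/- vehicle 168 hr to 7.74 in wt vehicle 6 hr. A probe set was called in a comparison at an adjusted p under 0.05 and a fold change above 1.3, after probe sets whose differences depended on laboratory were set aside at that time point. This laboratory filter kept 6, 3, 9 and 5 of the 20 member probe sets at 6, 24, 48 and 168 hr, and 39.3%, 47.9%, 78.8% and 71% of all probe sets. Values of a member that was set aside are given below without the filter and by number set.

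**Figure D1:**
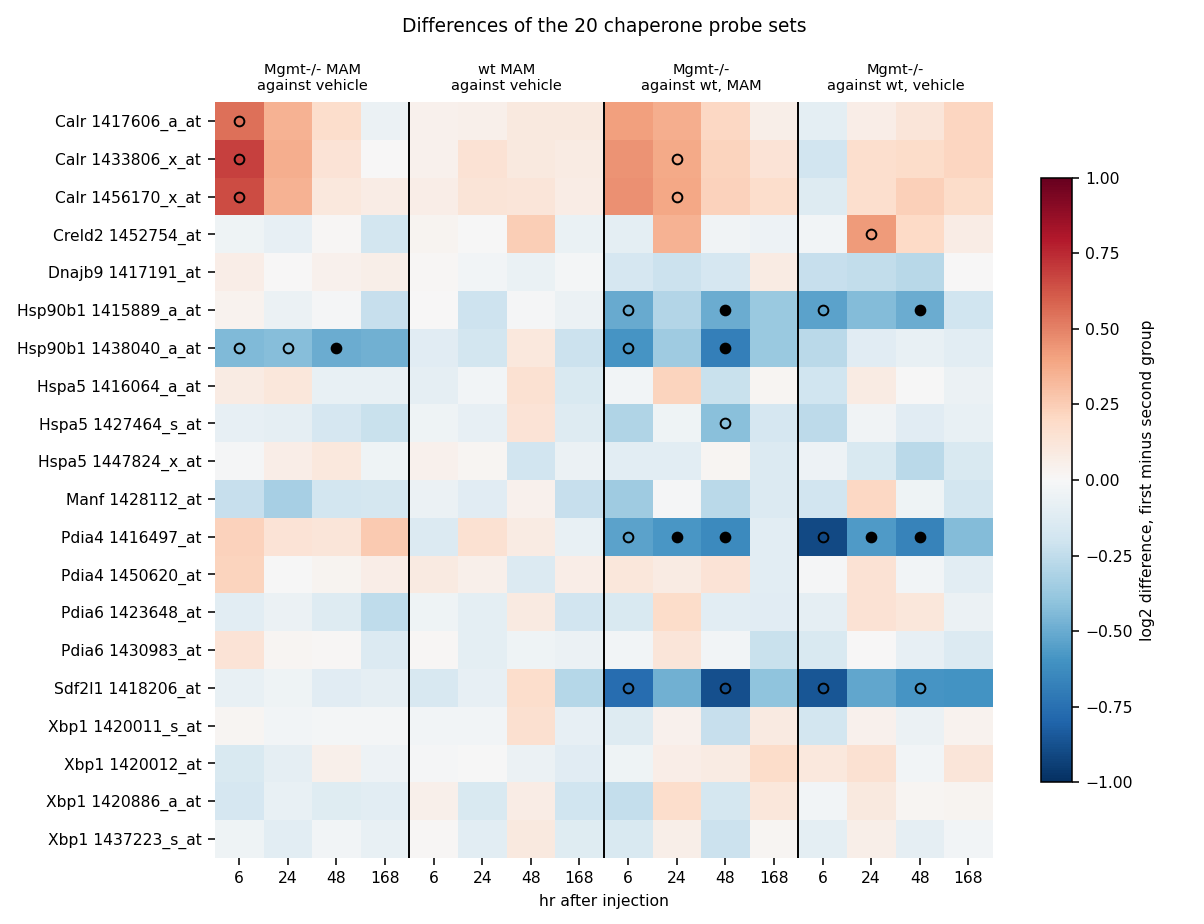
Log2 difference (colour, first minus second group) of each of the 20 member probe sets (rows) in 4 comparisons at 6, 24, 48 and 168 hr (columns). Filled dots mark calls with the laboratory filter and open dots those made only without it, where the fold is above 1.3 and adjusted p is under 0.05. The brighter Pdia4 probe set, Sdf2l1 and both Hsp90b1 probe sets are lower in Mgmt-/- mice, and no probe set is marked for MAM in wt mice. The dimmer Pdia4 probe set is lower in Mgmt-/- mice in 4 of 8 comparisons, with differences of -0.11 to 0.14.

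Pdia4 showed the clearest difference between genotypes. At 6 hr after vehicle its log2 value had a lowest, median and highest of 6.59, 6.82 and 7.25 in the 6 Mgmt-/- mice, against 7.40, 7.75 and 8.08 in the 6 wt mice. At 24 hr the values were 6.81, 6.97 and 7.18 in Mgmt-/- vehicle, against 7.47, 7.51 and 7.70 in wt vehicle. At both times every Mgmt-/- animal was below every wt animal. At 48 hr the lowest, median and highest in Mgmt-/- vehicle were 6.77, 6.80 and 7.08, and the 5 wt vehicle mice had 7.70, 7.87, 7.60, 7.49 and 6.95, so 1 wt animal lay within the Mgmt-/- range.

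After MAM the values at 6 hr were 6.93, 7.06 and 7.28 in Mgmt-/- mice, against 7.44, 7.52 and 8.06 in wt mice. At 24 hr they were 6.79, 7.13 and 7.31 in Mgmt-/- MAM, against 7.46, 7.75 and 7.79 in wt MAM, and at 48 hr 6.78, 6.96 and 7.12, against 7.40, 7.55 and 8.02. The genotypes did not overlap at any of these 3 times.

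With the laboratory filter, Pdia4 was called lower in Mgmt-/- mice at 24 hr, by 0.57 in vehicle (SE 0.074, adjusted p = 1.7e-05) and by 0.58 after MAM (SE 0.074, adjusted p = 6.7e-06). It was also called at 48 hr, by 0.67 in vehicle (SE 0.12, adjusted p = 0.0022) and by 0.63 after MAM (SE 0.12, adjusted p = 0.00050). Both 48 hr calls were lost without either of 2 wt animals, 1 of vehicle and 1 of MAM, because the filter then set the probe set aside, with differences of -0.64 and -0.67 in vehicle and -0.63 and -0.54 after MAM. In number set 2 alone the vehicle difference at 48 hr was -0.45 (adjusted p = 0.17). At 24 hr it was the only member called, where 4.86% of genes tested were lower in vehicle and 6.11% after MAM. At 48 hr, Pdia4 and Hsp90b1 were the members called lower of 5 tested, where 3.38% of genes were lower in vehicle and 11% after MAM. At 6 hr the probe set was set aside by the filter, and without it the difference was -0.90 in vehicle (SE 0.12, adjusted p = 2.7e-05, number sets -1.05 and -0.75) and -0.54 after MAM (SE 0.12, adjusted p = 0.0033, number sets -0.78 and -0.29). The RNA integrity measure moved with genotype. With it as a covariate the differences after MAM at 24 and 48 hr became -0.43 and -0.37, with adjusted p of 0.14 and 0.43, and neither was called. In vehicle they became -0.47 and -0.55, with adjusted p of 0.019 and 0.031, and both were still called.

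**Figure D2:**
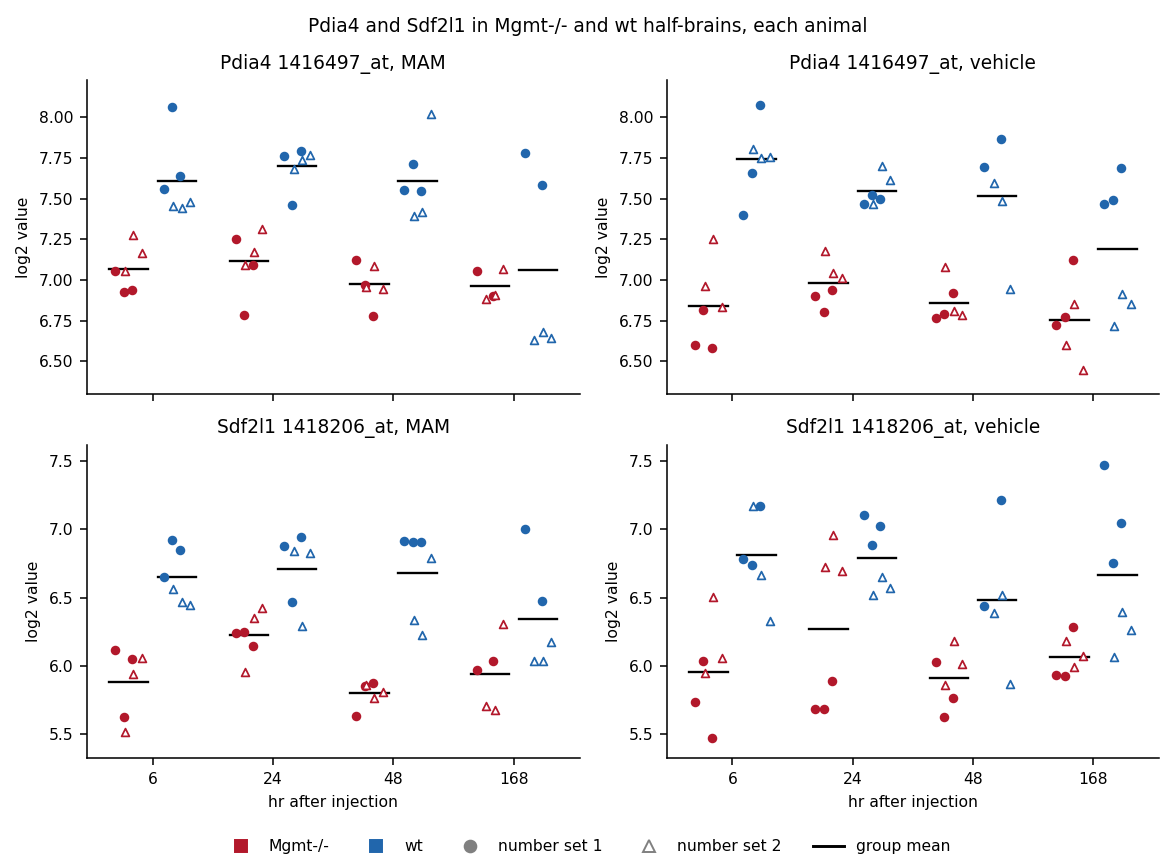
Log2 values of Pdia4 (upper panels) and Sdf2l1 (lower panels) in each Mgmt-/- (red) and wt (blue) animal by time, after MAM (left) and vehicle (right), with the 2 number sets as filled circles and open triangles and lines at group means. Pdia4 separates the genotypes at 6 and 24 hr, while at 168 hr the wt animals of number set 2 lie between 6.63 and 6.91, among the Mgmt-/- animals.

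At 168 hr the 2 number sets of wt mice differed in Pdia4. The Mgmt-/- vehicle mice had a lowest, median and highest of 6.45, 6.75 and 7.12, and the wt vehicle mice had 7.47, 7.49 and 7.69 in number set 1 and 6.72, 6.91 and 6.85 in number set 2. After MAM the 5 Mgmt-/- mice ranged from 6.88 to 7.07, and the wt mice had 7.78 and 7.58 in number set 1 and 6.63, 6.68 and 6.65 in number set 2. The 5 wt mice of number set 1 were thus as high as wt mice at earlier times, 7.40 to 8.08 in that number set, and the 6 of number set 2 were below all 18 earlier wt mice of theirs, 6.95 to 8.02. The genotype difference at 168 hr was -0.44 in vehicle (adjusted p = 0.14, number sets -0.68 and -0.19) and -0.10 after MAM (adjusted p = 0.76, number sets -0.70 and 0.30), and no member was called, where 0.159% and 2.7% of genes were.

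The same 6 wt arrays stood apart over much of the array. Of all probe sets, 1198 (2.66%) separated every mean of the Mgmt-/- mice from every mean of the wt mice over agent, time and number set at 6 to 48 hr, 1019 of them lower in Mgmt-/- mice, and 1 of these was a member, Pdia4. At 168 hr the share of these probe sets nearer to the Mgmt-/- than to the wt mean was 83.3% to 94.7% in the 5 Mgmt-/- arrays of number set 1 and 77.8% to 97.3% in the 6 of number set 2. It was 7.18% to 17.1% in the 5 wt arrays of number set 1 and 69.2% to 81.6% in the 6 of number set 2. Why these 6 wt arrays lay with Mgmt-/- was not tested, and all values at 168 hr that use wt mice rest in part on them.

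Sdf2l1 was lower in Mgmt-/- mice in all 8 comparisons of genotype, by 0.40 to 0.88, but depended on number set and was set aside by the laboratory filter at every time. At 6 hr after vehicle the lowest, median and highest were 5.473, 5.989 and 6.502 in Mgmt-/- mice, against 6.329, 6.760 and 7.171 in wt mice, with the groups overlapping. At 48 hr after MAM they were 5.64, 5.83 and 5.87 in Mgmt-/- mice, against 6.23, 6.85 and 6.92 in wt mice, with no overlap. Over the 4 times the vehicle differences were -0.85, -0.52, -0.59 and -0.60 (adjusted p = 0.0012, 0.080, 0.024 and 0.091 without the filter). They were -1.15, -1.25, -1.02 and -1.04 in number set 1, and -0.55, 0.21, -0.24 and -0.16 in number set 2. The 24 hr vehicle mice of Mgmt-/- number set 2 had 6.70 to 6.96, above the 5.68 to 5.89 of number set 1. After MAM the differences were -0.76, -0.48, -0.88 and -0.40 (adjusted p = 0.0017, 0.092, 0.00016 and 0.22), with -0.73 and -0.18 in number sets 1 and 2 at the last time.

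Hsp90b1, the Hsp90 chaperone of the ER lumen (Grp94), was lower in Mgmt-/- mice on the brighter of its 2 probe sets in all 8 comparisons, although the number sets gave -0.46 and 0.06 for vehicle at 168 hr. At 48 hr the lowest, median and highest values after MAM were 10.19, 10.35 and 10.55 in Mgmt-/- mice, against 10.66, 10.88 and 10.95 in wt mice. In vehicle at 48 hr they were 10.01, 10.36 and 10.67 in Mgmt-/- mice, and the 5 wt mice ranged from 10.75 to 11.02. All Mgmt-/- animals were below all wt animals at 48 hr in both agents. The difference was -0.50 after MAM (SE 0.098, adjusted p = 0.00088, number sets -0.45 and -0.54) and -0.50 in vehicle (SE 0.10, adjusted p = 0.0053, number sets -0.51 and -0.47), and both were called. Without 1 Mgmt-/- vehicle animal the probe set was set aside by the filter, and both calls were lost. In number set 1 alone neither passed (adjusted p = 0.18 after MAM and 0.27 in vehicle), and with number set nested in genotype the vehicle difference did not (-0.49, adjusted p = 0.079). At 6 hr, where it was set aside by the filter, it was -0.50 after MAM and -0.53 in vehicle (adjusted p = 0.0037 and 0.0043 without the filter). The dimmer probe set was lower in Mgmt-/- mice after MAM, by 0.59 at 6 hr (adjusted p = 1.1e-05 without the filter) and by 0.68 at 48 hr (adjusted p = 4.2e-06, called, but set aside by the filter with cyclic loess normalization or without 1 Mgmt-/- MAM animal), while in vehicle its differences were -0.27, -0.12, -0.08 and -0.10, the last with -0.62 and 0.42 in the number sets. The 2 probe sets of this gene followed each other only in part over the 93 arrays (r = 0.36).

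Without the laboratory filter, 3 members were lower in Mgmt-/- vehicle at 6 hr (Hsp90b1, Pdia4 and Sdf2l1), where 6% of all genes were, and the same 3 at 48 hr, where 3.78% were. After MAM the same 3 were lower at 6 hr (9.75% of genes) and, with Hspa5 on its second probe set at -0.42 (adjusted p = 0.0055), 4 at 48 hr (12.2%). At 24 hr Calr was higher in Mgmt-/- MAM without the filter, the only member among 3.66% of genes, by 0.38 on 2 of its 3 probe sets (adjusted p = 0.023 and 0.0095, with 0.13 and 0.22 in number set 1 and 0.63 and 0.55 in number set 2). Over the members, with the probe set of the highest mean for each gene, the median genotype difference after vehicle was -0.19, 0.06, -0.07 and -0.06 from the earliest time to the latest. After MAM it was -0.16, 0.02, -0.22 and -0.07. At 168 hr the medians were -0.20 in vehicle and -0.16 after MAM in number set 1, and 0.06 and 0.05 in number set 2. Over all genes the medians lay between 0.01 and 0.04. Dnajb9 was 0.28 lower in Mgmt-/- vehicle at 48 hr (SE 0.073, adjusted p = 0.027), with no Mgmt-/- animal above 10.23 and wt animals at 10.36 to 10.44, but its fold change of 1.21 was under the threshold. Creld2, a stress-inducible ER protein with EGF-like domains, was 0.43 higher in Mgmt-/- vehicle at 24 hr without the filter (adjusted p = 0.023), where 2.68% of genes were higher and Creld2 was the only member, and the number sets gave 0.01 and 0.85.

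Other genes of the ER were tested in the same 48 hr comparisons, where 3.38% of all genes were called lower in Mgmt-/- vehicle and 11% after MAM. Of 27 other chaperones and folding enzymes, 25 were tested, and 2 were called lower in Mgmt-/- vehicle at 48 hr, Ero1b and Pdia3, and 6 after MAM, with Dnajc3, Ero1a, Fkbp2 and Sec63 besides. Pdia3, the disulfide isomerase that acts with calreticulin, was -0.57 in vehicle (adjusted p = 0.0025). Of 23 genes of ER-associated degradation and translocation, 21 were tested, and 4 were called lower in vehicle at 48 hr (Selenok, Selenos, Ssr1 and Ube2j1) and 10 after MAM, among them Derl1, Derl2, Edem1 and Sec61a1. The medians of these lists after MAM were -0.05 and -0.02, against 0.04 over all genes. Of 10 sensors and processing factors of the response, 1 was called lower at 48 hr after MAM, Crebzf, and in vehicle none was. Cell type markers were called lower in the same comparisons, 4 of 8 astrocyte, 3 of 9 oligodendrocyte and 2 of 9 microglia genes tested after MAM, and 2, 2 and 0 of them in vehicle, and their part in the members' values was not tested.

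MAM against vehicle asked whether the agent itself moved these genes. In Mgmt-/- mice the dimmer Hsp90b1 probe set was lower after MAM at all 4 times. At 6 hr its lowest, median and highest were 9.34, 9.52 and 9.69 after MAM, against 9.69, 9.94 and 10.27 after vehicle. At 24 hr they were 9.54, 9.68 and 9.96 after MAM, against 9.85, 10.16 and 10.32 after vehicle. At 48 hr they were 9.33, 9.52 and 9.76 after MAM, against 9.71, 10.06 and 10.11 after vehicle. At each of these times the top of the MAM range reached into the bottom of the vehicle range. At 168 hr the 5 MAM values were 9.03 to 9.80, against 9.44 to 10.23 after vehicle.

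At 48 hr the difference was -0.50 (SE 0.086, adjusted p = 0.0041, number sets -0.40 and -0.59) and was called, where Hsp90b1 was the only member lower and 0.778% of genes tested were lower. Without the filter the differences at 6 and 24 hr were -0.44 (adjusted p = 0.0034, number sets -0.54 and -0.34) and -0.43 (adjusted p = 0.025, number sets -0.27 and -0.58), where 1.84% and 1.15% of genes were lower and no other member was. At 168 hr it was -0.48 (adjusted p = 0.25, number sets 0.00 and -0.92). The call at 48 hr was lost with the RNA integrity measure as a covariate (-0.49, adjusted p = 0.14), when 1 Mgmt-/- MAM animal was left out (-0.45), where the probe set was set aside by the filter, with cyclic loess normalization for the same reason, and in number set 1 alone (-0.40, adjusted p = 0.42). The brighter probe set gave 0.04, -0.06, -0.01 and -0.23 at the 4 times, with no adjusted p under 0.56.

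In wt mice the same probe set had a lowest, median and highest of 10.01, 10.24 and 10.34 after MAM at 48 hr, and the 5 vehicle mice had 10.26, 10.19, 9.93, 10.10 and 9.95, so the groups overlapped. The MAM effect in Mgmt-/- mice minus that in wt mice was -0.60 at 48 hr (SE 0.12, adjusted p = 0.016, number sets -0.36 and -0.81), the only interaction called among the members, where 1.44% of genes were lower. At 6, 24 and 168 hr it was -0.32, -0.24 and -0.27 (adjusted p = 0.45, 1.00 and 0.88 without the filter), with 0.24 and -0.78 in number sets 1 and 2 at 168 hr. The call at 48 hr was lost with the RNA integrity measure as a covariate (-0.60, adjusted p = 0.095), in 1 fit of all arrays (-0.60, adjusted p = 0.077) and in number set 1 alone (adjusted p = 0.66). With cyclic loess normalization (-0.54) or without 1 Mgmt-/- MAM animal (-0.56) the probe set was set aside by the filter.

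**Figure D3:**
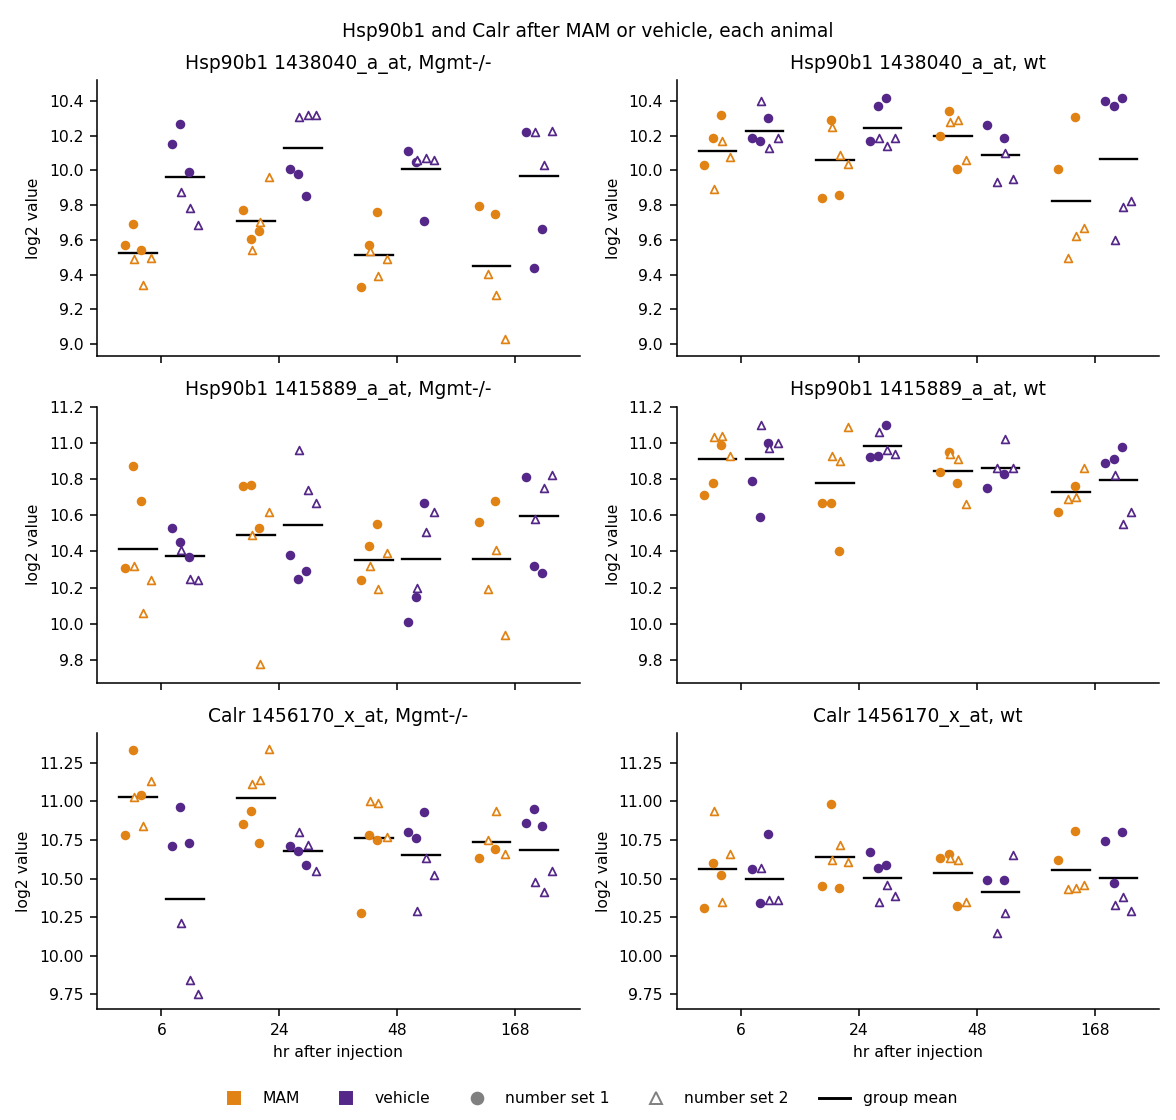
Log2 values of the dimmer Hsp90b1 probe set (top row), the brighter one (middle row) and 1 Calr probe set (bottom row) in each animal after MAM (orange) or vehicle (violet) by time, in Mgmt-/- (left) and wt (right) mice, with number sets as filled circles and open triangles and lines at group means. In Mgmt-/- mice the mean of the dimmer Hsp90b1 probe set is lower after MAM at every time, and the 3 lowest Calr values of Mgmt-/- mice are vehicle animals of number set 2 at 6 hr.

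Calr was higher after MAM in Mgmt-/- mice at 6 hr on all 3 of its probe sets, which followed each other closely (r = 0.92 to 0.93). On the one plotted the 6 MAM mice had a lowest, median and highest of 10.78, 11.03 and 11.33, and the vehicle mice had 10.71, 10.96 and 10.73 in number set 1 and 10.21, 9.85 and 9.76 in number set 2. The groups overlapped in number set 1 and not in number set 2, where the vehicle mice were low. These vehicle arrays of number set 2 are described below as far from those of later times over the whole array. Their part in the Calr difference was not tested. The differences were 0.55, 0.68 and 0.66 (adjusted p = 0.036, 0.014 and 0.023 without the filter), with 0.24 to 0.29 in number set 1 and 0.87 to 1.07 in number set 2. Calr was the only member higher without the filter, where 0.797% of genes were, and it was set aside by the filter at every time. At 24 hr the differences were 0.35 to 0.36 (adjusted p = 0.096 to 0.13), and at 48 and 168 hr the 2 number sets had opposite signs. The interaction at 6 hr was 0.51 to 0.64 (adjusted p = 0.44 to 0.57), so a difference between the genotypes in this effect was not established.

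No other member was called for MAM in Mgmt-/- mice with or without the filter, where 2.9%, 1.06% and 0.853% of genes tested were called with it at 6, 24 and 168 hr. Manf, an ER protein with neurotrophic activity that binds Hspa5, was lower at each time by 0.18 to 0.33, and Sdf2l1 by 0.05 to 0.12, neither with an adjusted p under 0.05. The median difference of the members was 0.00, -0.05, -0.02 and -0.08 at 6, 24, 48 and 168 hr, against 0.02, 0.02, 0.01 and -0.01 over all genes. Of the other ER lists, Selenos and Ube2j1 were called lower at 6 hr and Os9 at 48 hr, all 3 of the degradation list of 23 genes, and Sesn2 of 21 targets of Perk and the amino acid response was called lower at 6 hr. Among the 27 other chaperones and the 10 sensors none was called at any time. At 6 hr, 3 of 14 liver-secreted protein genes (Alb, Cyp2e1 and Serpina1c) were called higher in Mgmt-/- MAM and all 14 had a positive difference, with group means of 6.11 in MAM and 5.40 in vehicle; their part in the Calr and Hsp90b1 results was not tested.

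In wt mice no member was called for MAM at any time, with or without the filter, and neither was any gene (0% of genes tested). The 80 differences of 20 probe sets at 4 times ran from -0.28 to 0.24, 2 of them at an unadjusted p under 0.05 (3.24%, 6.11%, 14.4% and 3.32% of all probe sets over the 4 times), and the smallest adjusted p of a member was 0.46 in limma with the filter and 0.37 without it. The median of the members was -0.02, -0.06, 0.09 and -0.10 at 6, 24, 48 and 168 hr, the last with -0.24 and -0.00090 in number sets 1 and 2.

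Members were also compared between times within each genotype and agent. In the fit of all 93 arrays no member was called at 24 against 6 hr in Mgmt-/- mice, where 0.0385% of genes were called higher after MAM and 0% after vehicle. At an unadjusted p under 0.05, 8 of the 20 probe sets were higher at 24 hr after MAM (2.17% of all probe sets) and 12 of 20 after vehicle (2.43%). In wt mice none of the 20 was, in either direction, after MAM (4.33%) or vehicle (1.78%). The number sets of Mgmt-/- mice differed here, and the values by number set follow.

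In number set 2, Creld2 had 8.14, 7.97 and 8.39 at 24 hr after MAM, against 7.52, 7.58 and 7.66 at 6 hr. After vehicle it had 8.25, 8.21 and 8.31 at 24 hr, against 7.57, 7.59 and 7.01 at 6 hr. All 24 hr values were above all 6 hr values in both agents. In number set 1 the means were 7.68 at 24 hr and 7.34 at 6 hr after MAM, also with no overlap (7.657 to 7.695 at 24 hr, against 7.301 to 7.382), and 7.76 and 7.63 after vehicle, with overlap.

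Hspa5 in number set 2 had 11.77, 11.67 and 12.02 at 24 hr after MAM, against 11.22, 11.19 and 11.33 at 6 hr. After vehicle it had 11.86, 11.70 and 11.46 at 24 hr, against 10.87, 11.04 and 10.80 at 6 hr. The 24 hr values were again all higher, while in number set 1 the means were 11.27 and 11.12 after MAM and 11.19 and 11.30 after vehicle. The second Hspa5 probe set had the same order in number set 2, by 0.54 after MAM and 0.79 after vehicle. The third went the other way after MAM in number set 2, with 8.559 to 8.626 at 24 hr, against 8.643 to 8.812 at 6 hr. After vehicle the third was 0.096 higher, with overlap, and it followed the main probe set only weakly over the arrays (r = 0.07).

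Manf, Pdia6 and Xbp1 had the same order in number set 2. Manf was 9.575 to 9.997 at 24 hr after MAM, against 9.13 to 9.21 at 6 hr, and 10.12 to 10.41 at 24 hr after vehicle, against 9.32 to 9.80. Pdia6, a disulfide isomerase, was 9.74 to 10.09 after MAM, against 9.26 to 9.48, and 9.82 to 10.10 after vehicle, against 9.22 to 9.48. Xbp1 was 10.98 to 11.24 after MAM, against 10.72 to 10.81, and 11.11 to 11.50 after vehicle, against 10.41 to 10.85. Of the 20 probe sets, 11 had all 24 hr animals of number set 2 above all 6 hr animals after MAM and 15 after vehicle, against 5 and 0 in number set 1. These 5 were 1 probe set each of Creld2, Pdia6 and Sdf2l1 and 2 of Xbp1, by 0.10 to 0.34. In wt mice the counts were 0 and 1 after MAM in number sets 1 and 2, and 4 and 0 after vehicle. The 1 after MAM was Pdia4. The 4 after vehicle were 1 probe set each of Creld2, Manf, Pdia6 and Xbp1, by 0.17 to 0.32. The share of all probe sets with such an order was not counted, so these counts only describe the members. The vehicle count of Mgmt-/- number set 2 uses its 6 hr arrays, described below as far from those of later times.

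Fitted alone, number set 2 of Mgmt-/- mice gave 5 of 10 members called higher at 24 hr after MAM, Creld2, Hspa5, Manf, Pdia6 and Xbp1, where 16 genes (0.0879%) were called higher in all. The others were Bcl2, Dusp14, Etv5, Fosl2, Homer1, Ncf4, Nptx2, Nrp1, Phf10, Serpinh1 and Sh3rf3, of which Serpinh1 encodes the collagen chaperone of the ER. After vehicle 8 of 10 members were called higher, the same 5 with Calr, Hsp90b1 and Sdf2l1, where 3.7% of genes were. The differences after MAM were 0.58 for Creld2 (adjusted p = 0.050), 0.57 for Hspa5 (0.044), 0.57 for Manf (0.050), 0.54 for Pdia6 (0.0091) and 0.56 for Xbp1 (0.050, on another probe set than the values above). The Xbp1 probe set of the values above was not called after MAM (0.36, adjusted p = 0.42). Nor were the remaining Xbp1 probe sets (0.45 and 0.14, adjusted p = 0.27 and 0.95). After vehicle the differences of these 5 members, in the same order and on the same called probe sets, were 0.86, 0.77, 0.75, 0.67 and 0.52. Number set 1 alone gave no member called.

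The difference between number sets was tested itself, a comparison chosen after these values were seen. In Mgmt-/- vehicle, 6 members rose more in number set 2 than in number set 1, Calr, Creld2, Hsp90b1, Hspa5, Pdia6 and Xbp1, where 0.302% of genes did, with 0.87 for Hspa5 (adjusted p = 0.0086) and 0.73 for Creld2 (adjusted p = 0.044). In Mgmt-/- MAM no member passed and no gene did, with an adjusted p of 1.00 for each member, and at an unadjusted p Manf had 0.0038 (difference 0.53). The 3 Mgmt-/- vehicle arrays of number set 2 at 6 hr were far from those of later times over the whole array, and in that number set alone 23.5% of all genes were called at 48 against 6 hr and 39.4% at 168 against 6 hr, against 6.52% at 24 hr. Their part in the vehicle result was not tested. They are not among the arrays compared at 24 against 6 hr after MAM, but they were in the same fit and so in its estimate of variance. Their part in the MAM result was not tested either.

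**Figure D4:**
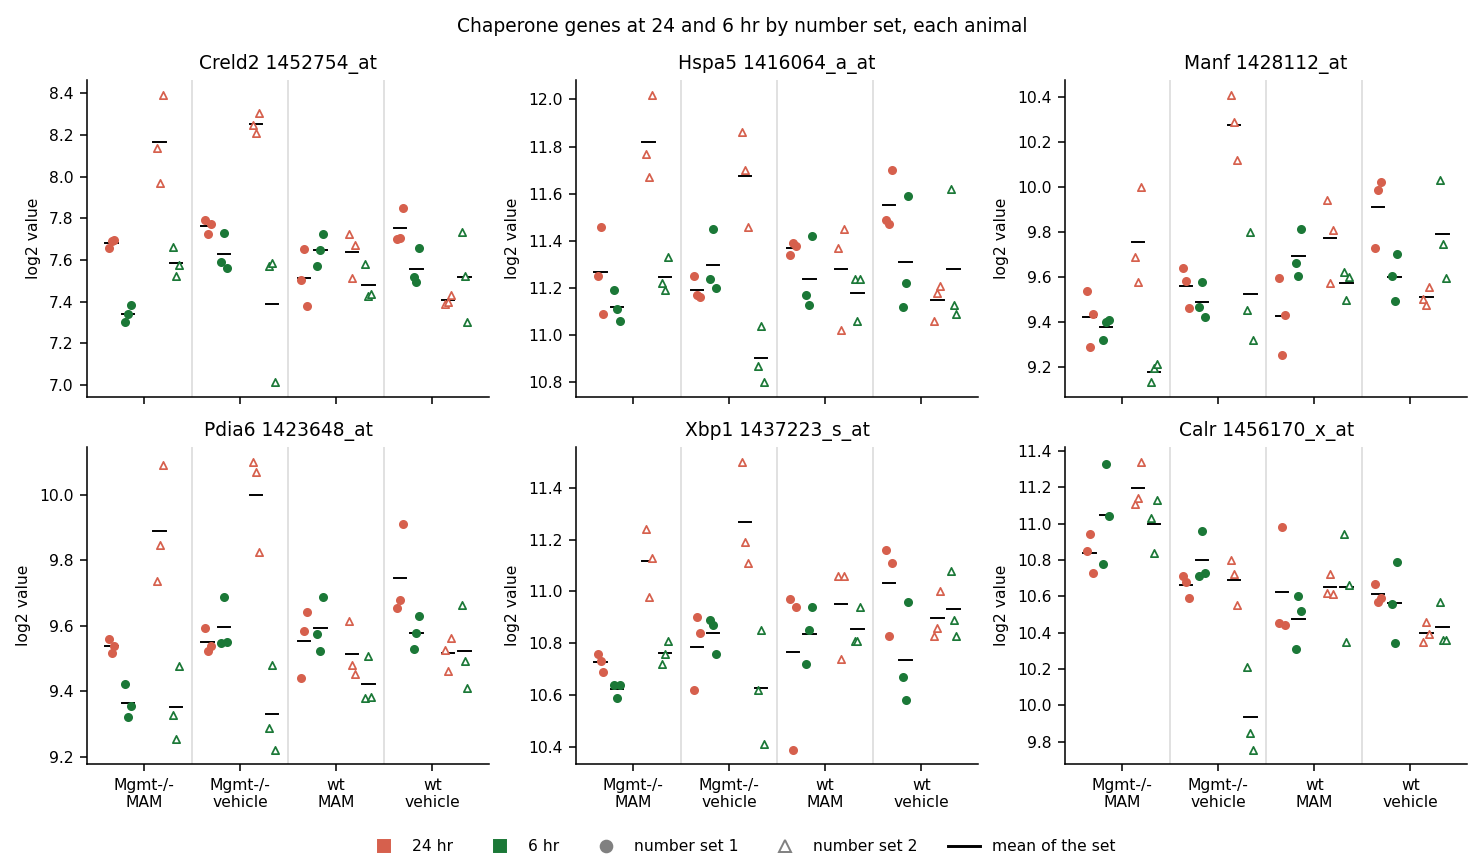
Log2 values of 6 members in each animal at 24 hr (red, left in each pair) and 6 hr (green) by genotype and agent, with number set 1 as filled circles, number set 2 as open triangles and lines at the mean of each number set. In Mgmt-/- number set 2 every 24 hr animal is above every 6 hr animal for Creld2, Hspa5, Manf, Pdia6 and Xbp1 after both agents.

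The other lists were measured in the same number set. In Mgmt-/- vehicle of number set 2, the median difference at 24 against 6 hr was 0.65 over the members, with 10 of 10 positive, against 0.01 over all genes, of which 3.7% were called higher. It was 0.13 over 27 other chaperones and folding enzymes, of which 6 were called higher (Canx, Dnajb11, Dnajc3, Erp44, Pdia3 and Ppic, by 0.46 to 0.73), 0.09 over 23 genes of ER-associated degradation, of which 2 were (Derl2 and Ostc), and 0.02 over 10 sensors, of which 0 were. Of 21 targets of Perk and the amino acid response, 1 was called higher, Chac1. Of 14 heat shock genes of the cytosol or mitochondria 3 were (Chordc1, Hspe1 and Hsph1). After MAM the members had a median of 0.38 with 9 of 10 positive, the heat shock genes 0.19 with none called, and the other 4 lists lay between -0.04 and 0.06. Markers of other cells moved too. The median of 9 microglia genes was 0.25 after MAM with none called, and 0.43 after vehicle with 4 called, and that of 9 oligodendrocyte genes was -0.07 after MAM and 0.33 after vehicle with 3 called. The median of 10 choroid plexus genes was -0.08 after MAM and 0.34 after vehicle with 1 called (Aqp1). That of 9 endothelium genes was 0.02 after MAM and -0.04 after vehicle with 2 called (Flt1 and Tek). No neuron or astrocyte gene was called after either agent. The part of these markers in the members' values was not tested.

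Between later times and 6 hr the only member called in the fit of all arrays was Pdia4 in wt MAM at 168 hr, -0.53 (SE 0.14, adjusted p = 0.031), where 1.79% of genes were lower. The number sets gave -0.07 and -0.81, and without the 6 wt arrays of number set 2 at 168 hr the difference was 0.09 (adjusted p = 0.96). In wt vehicle the same contrast was -0.55 (adjusted p = 0.060, number sets -0.16 and -0.94). In Mgmt-/- mice no member was called at 48 or 168 hr in either agent, with differences of -0.31 to 0.38 and the smallest adjusted p 0.28.

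The members also varied together from animal to animal. After the mean of each group within each number set was subtracted, the 45 pairs of members had a median Pearson r of 0.36 over the 93 arrays, from -0.17 to 0.75, and 10 pairs were above 0.5. The members were measured on the same arrays from the same RNA, so this is a description and was given no p. Creld2 and Manf had the highest r, 0.75 (Spearman rho 0.63), followed by Hspa5 with Manf at 0.72. Hspa5, Manf, Creld2, Xbp1 and Pdia6 had r of 0.82, 0.77, 0.70, 0.66 and 0.56 with the mean of the other members. Calr, Sdf2l1 and Pdia4 had 0.33, 0.33 and 0.14, so the member that differed most clearly between genotypes followed the others least. Sdf2l1 and Pdia4 were paired with each other at 0.50. Without the 2 animals farthest from the median the median over pairs was 0.30, the highest was 0.70 and 9 pairs were above 0.5.

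**Figure D5:**
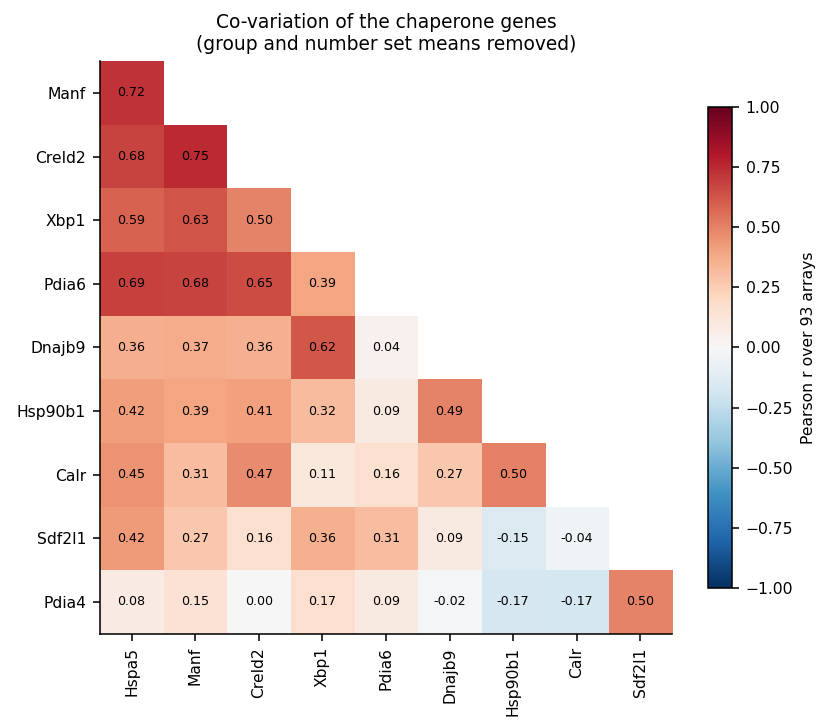
Pearson r (colour and number) between each pair of members over 93 arrays after group and number set means were subtracted, with 1 probe set per gene, that of the highest mean. Hspa5, Manf, Creld2, Xbp1 and Pdia6 form a block with r of 0.39 to 0.75, and Pdia4 stands outside it and follows Sdf2l1 (0.50).

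The 10 genes whose residuals were most like the mean of the members were Chordc1 (r = 0.73), Hexa (0.70), Sfpq, P4ha1, Cryab, Hspd1, Pdia3, Derl2, Mettl16 and H2aw (0.63), of 18184 genes compared, 95% of which had r below 0.35 and 99% below 0.45. Pdia3 and Derl2 are ER genes, P4ha1 is the prolyl hydroxylase subunit of the ER, and Chordc1, Hspd1 and Cryab encode chaperones of the cytosol or mitochondria. The RNA integrity measure, with the same group and number set means subtracted, had r = -0.06 with the mean of the members. This value does not bear on differences between groups.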

How the data were processed

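RNA of half-brains was hybridised to Affymetrix Mouse430 2.0 arrays, and the authors deposited log2 values made with RMA in the affy package. Neither the affy version nor the set of arrays normalized jointly was stated in the sources. Of 45101 probe sets, 34958 name 1 gene in the platform annotation, and no probe set naming several genes held a member. For each time point limma 3.58.1 (R 4.3.3) was fitted to all probe sets with genotype, agent, their interaction and number set. Probe sets with a joint p of at most 0.15 for the interactions with number set were set aside (the laboratory filter), and p-values were adjusted by the Benjamini-Hochberg method over the rest. Times were compared in a limma fit of all 93 arrays without this filter. Calling a gene required 1 of its probe sets at an adjusted p under 0.05 with a fold change above 1.3. Each sample is a separate animal, and precision is set by how many arrays a group has. That the number sets are the laboratories, and which set of one genotype matches which of the other, is an assumption. The scripts were tested on simulated data.

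The members and lists were chosen with earlier results of these data known. The text names all 10 members, the called genes of the other lists and, by residual correlation, the 10 genes most like the mean of the members. Other genes called in 1 number set at 24 hr were named after their values were seen. Alternatives were another normalization, array weights, an RNA integrity covariate, other forms of the number set term, each number set alone, no filter, no fold threshold, bright probe sets alone, 1 fit of all arrays, each arm alone and each animal left out. Promoter sequences are from RefSeq (GRCm38.p6). Figures were drawn with matplotlib 3.10.9.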

Additional observations from a re-analysis of the deposited data

Results flagged for a closer look

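In 10 of 160 groups tested, 1 animal lay far from the rest of its group, and chance alone flags about 1 in 20 groups. In Mgmt-/- MAM 48 hr the same animal was the lowest for 4 genes, with 6.884 for Creld2 (others up to 7.83), 10.58 for Hspa5 (others 11.15 to 11.34), 8.817 for Manf (others 9.32 to 9.58) and 9.009 for Pdia6 (others 9.48 to 9.66). This is the animal without which the 48 hr calls of Hsp90b1 for MAM in Mgmt-/- mice and for the interaction were lost.

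Creld2 was low in 1 Mgmt-/- vehicle animal at 6 hr (7.012, others 7.56 to 7.73) and high in 1 Mgmt-/- MAM animal at 168 hr (7.905, others 7.40 to 7.45). The brighter Hsp90b1 probe set was low in 1 Mgmt-/- MAM animal at 24 hr (9.775, others 10.49 to 10.77). Hspa5 was low in 1 wt MAM animal at 24 hr (11.02, others 11.34 to 11.45). Pdia4 was high in 1 wt MAM animal at 6 hr (8.062, others 7.44 to 7.64) and low in 1 at 24 hr (7.464, others 7.68 to 7.79), and this last animal still lay above every Mgmt-/- MAM animal of that time. The MAM effect on the dimmer Hsp90b1 probe set differed between Mgmt-/- and wt mice at 48 hr by -0.6046 in the interaction test, and the cause was not tested.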

How the results depend on the processing

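Of the counts of members called under another setting, 270 stayed within 1.5 times the main count and 65 did not. The 270 include main counts of 0 that stayed 0, and most main counts were 0, so they do not measure how stable the calls were. Values below are members called. Without the laboratory filter, Mgmt-/- MAM against vehicle gave 2 at 6 hr and 1 at 24 hr, and Mgmt-/- against wt gave 3, 2 and 4 after MAM at 6, 24 and 48 hr and 3 and 2 in vehicle at 6 and 24 hr. Without the fold threshold, Mgmt-/- against wt after MAM at 6 hr gave 2. With the RNA integrity covariate, the 48 hr MAM effect in Mgmt-/- mice and its interaction gave 0, Mgmt-/- against wt after MAM gave 0 at 24 hr and 1 at 48 hr, and wt MAM at 168 against 6 hr gave 0. With cyclic loess, the MAM effect in Mgmt-/- mice gave 1 at 6 hr and 0 at 48 hr, the 48 hr interaction 0, Mgmt-/- against wt after MAM at 6 hr 1, and wt MAM at 168 against 6 hr 0. At 168 against 6 hr, array weights gave 2 in wt MAM and 1 in wt vehicle, bright probe sets alone 1 in wt vehicle, and each arm alone 0 in wt MAM. With number set nested in genotype, vehicle at 48 hr gave 1. With number sets crossed, chosen after seeing the data, Mgmt-/- against wt gave 3, 2 and 4 after MAM at 6, 24 and 48 hr and 3 in vehicle at 6 hr.

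Number set 1 alone gave 1, 1 and 0 for MAM in Mgmt-/- mice at 6, 24 and 48 hr, 0 for the 48 hr interaction, 4, 2 and 4 for Mgmt-/- against wt after MAM at these times, 2, 4, 1 and 2 in vehicle at 6, 24, 48 and 168 hr, and 0 for wt MAM at 168 against 6 hr. Number set 2 alone gave 1, 4 and 1 for MAM in Mgmt-/- mice at 6, 24 and 168 hr, 1, 5, 4 and 1 for Mgmt-/- against wt after MAM over the 4 times, and 7, 6 and 1 in vehicle at 6, 24 and 48 hr. Against 6 hr it gave 5 in Mgmt-/- MAM at 24 hr, 8, 1 and 3 in Mgmt-/- vehicle at 24, 48 and 168 hr, and 2 in wt MAM and 4 in wt vehicle at 168 hr. A single fit of all arrays gave 2, 1 and 1 for MAM in Mgmt-/- mice at 6, 24 and 168 hr, 0 for the 48 hr interaction, 4, 2 and 4 for Mgmt-/- against wt after MAM at 6, 24 and 48 hr, and 3 and 4 in vehicle at 6 and 24 hr.

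With each animal left out in turn, the MAM effect in Mgmt-/- mice ranged from 0 to 1 at 6 and 48 hr and the 48 hr interaction from 0 to 1. Mgmt-/- against wt ranged from 0 to 2, 1 to 1 and 1 to 2 after MAM at 6, 24 and 48 hr, and from 0 to 1, 1 to 1 and 1 to 2 in vehicle. At 168 against 6 hr it ranged from 0 to 1 in wt MAM and in wt vehicle. For 28 probe set results under the settings other than leaving 1 animal out, 240 outcomes had the same status as in the main analysis. These include results that were called in neither. A call was lost in 18 and gained in 68, and 1 difference reversed. The reversal was Pdia4 in wt MAM at 168 against 6 hr, which became 0.087 without the 6 wt arrays of number set 2. There 0 members were called, and that setting was chosen after seeing the data. The cause of these changes was not tested. No paired analysis was possible because animal numbers do not repeat between groups.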
